A study of Drosophila melanogaster with 3 samples.

Results

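The proteasome subunit genes of Drosophila melanogaster were examined in salivary glands of L3 larvae. Members were the protein-coding genes whose annotated symbol starts with Prosalpha, Prosbeta, Rpn or Rpt followed by a number, which gave 48 of the 17278 genes in the deposited table. Of these, 32 were main subunits and 16 were paralogues, marked in their symbols by the suffix T or R. The 3 libraries formed a single group of control glands, raised at 25 °C, with 50 pooled glands per library. The sample titles name Oregon flies, whereas the genotype field reads yw, and no transgene or treatment is given. With 1 group there is no contrast between conditions, and the labels do not say whether the libraries came from separate cultures. The SDs below are over these 3 libraries and may reflect technical spread alone.

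The proteasome is the protease that degrades proteins tagged with ubiquitin chains. Its barrel-shaped core particle stacks outer rings of alpha subunits, which gate the entry, on inner rings of beta subunits, some of which carry the proteolytic sites. A regulatory particle caps the core. Its base holds the Rpt ATPases, which unfold and feed in the substrate, and its lid removes the ubiquitin chain. In Drosophila, many of the paralogues are known as testis versions of the general subunits. The larval salivary glands secrete glue proteins and are later removed by programmed cell death in the pupa.

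Levels are given as FPKM, which the authors derived by dividing fragments by gene length and a total for each library. From these values each gene's fragments could be recovered. The implied totals were 499875, 727436 and 945562 fragments in replicates 1, 2 and 3, fewer than were recovered. FPKM is therefore higher here than with all recovered fragments as the divisor. Recovered fragments outside rRNA genes were 678714, 874004 and 1185541 in replicates 1, 2 and 3. The share of rRNA was 55.0%, 41.4% and 24.6% in the same libraries. Glue genes and other gland markers marked the tissue, with all 8 listed gland genes at 1 FPKM or more in every library. All 7 fat body markers were also detected, and their summed level was 2886, 4102 and 4279 FPKM in replicates 1, 2 and 3. The part of fat body RNA in the levels below was not tested, and in pooled tissue fewer cells of a type and less RNA per cell cannot be told apart.

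The main subunits were expressed together at a moderately high and even level. Of the 32 main subunits, 31 were detected, meaning 1 FPKM or more in every library, and none of the 16 paralogues was. Over all protein-coding genes, 40.1% were detected. Without Prosalpha1, the main subunits had means between 52.96 FPKM for Rpn9 and 129 FPKM for Prosbeta1, a 2.44-fold range, with a median of 76.1 FPKM. These 31 genes lay between the 93.9 and 97.2 percentiles of all protein-coding genes. Together the 32 main subunits held 0.260%, 0.277% and 0.266% of the fragments outside rRNA genes in replicates 1, 2 and 3. The 95% Wilson bounds of these shares were 0.248% and 0.273%, 0.266% and 0.288%, and 0.256% and 0.275%. Each of the 31 rested on 121 to 607 fragments over the 3 libraries, and intervals cover counting error only. In the order of their means, 30 of 31 neighbouring pairs of main subunits differed by less than the larger of their SDs, so neighbours in this order are not told apart.

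**Figure D1:**
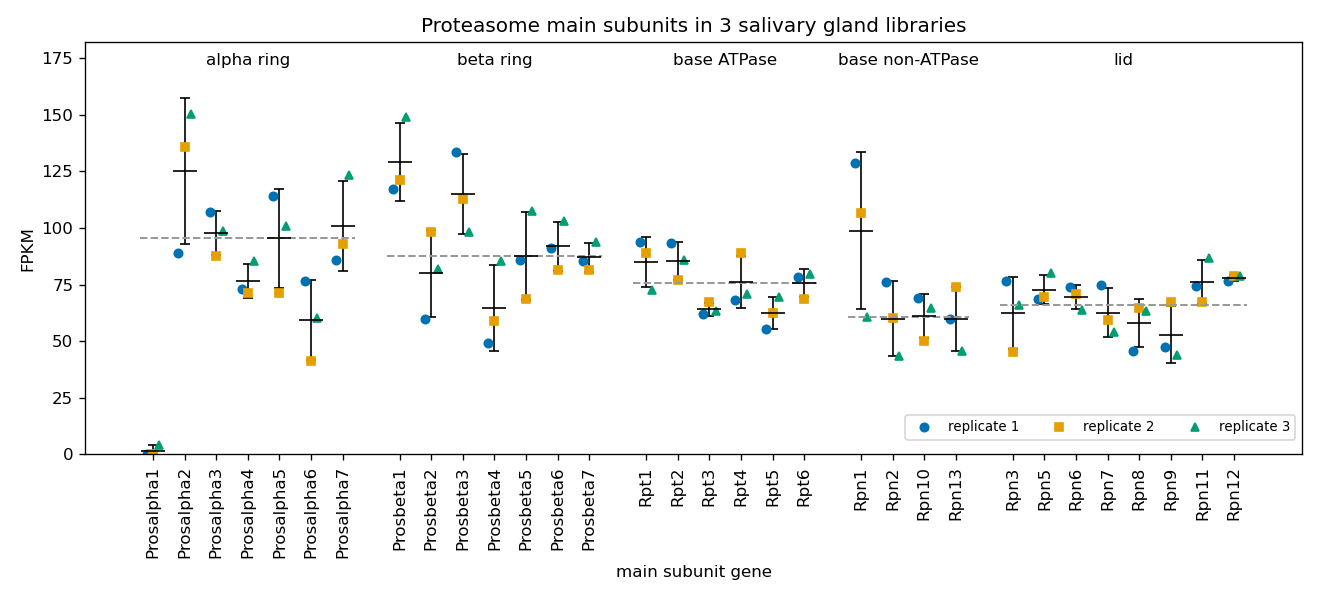
FPKM of the 32 main subunits, grouped as alpha ring, beta ring, base ATPases, other base subunits and lid. Coloured points are the 3 libraries, black dashes and bars are the mean and SD (lower bars stop at 0), and grey dashed lines are group medians. All subunits other than Prosalpha1 have means of 52.96 to 129 FPKM.

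The alpha subunits form the outer rings of the core and guard its pore. Prosalpha2 was the highest of them, with 89.2, 136 and 151 FPKM in replicates 1, 2 and 3. Its value in replicate 1 was lower than in the other libraries, and its counting intervals in replicates 1 and 3 (64.0 to 121 and 126 to 179 FPKM) did not overlap. Prosalpha7 had 86.1, 93.0 and 124 FPKM, and Prosalpha3 had 107, 87.6 and 98.9 FPKM. These ring members differed little between libraries, with intervals that overlapped in all pairs. Prosalpha5 had 114, 71.3 and 101 FPKM, and Prosalpha4 had 73.1, 71.3 and 85.4 FPKM. Prosalpha6 was the lowest alpha subunit apart from Prosalpha1, at 76.7, 41.1 and 60.3 FPKM, with its low value in replicate 2.

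Prosalpha1 stood apart from the other main subunits, with 0, 0 and 4.37 FPKM in replicates 1, 2 and 3. It rested on 4 fragments, all in replicate 3, and a count of 0 allows up to 6.19 FPKM in replicate 1 and 4.26 FPKM in replicate 2. Its gene (FBgn0263121, BDGP6.54 2R 7827303 to 7828678, minus strand) lies 1734 bases from Prosalpha1R (FBgn0050382, 2R 7830413 to 7831771, minus strand), which was listed at 0 in every library. Both genes have 732 coding bases. Their last 3 exon blocks have the same lengths, 100, 177 and 580 bases, and their 3 introns too, 57, 62 and 288 bases. The first block has 112 bases in Prosalpha1 and 95 bases in Prosalpha1R. The genes overlapping their ends on the other strand also share a last exon block of 386 bases, after an intron of 62 bases, in phr and CG18853. Of those, phr had 6.10, 4.19 and 10.2 FPKM, and CG18853 was listed at 0 in every library.

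Genes this alike in structure may share reads, and no source used here tells how the authors treated reads that align to both copies. The levels of Prosalpha1 and Prosalpha1R are therefore uncertain, and the value of Prosalpha1 is not read as a low level of this subunit. Whether reads shared between the copies were lost was not tested.

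The beta subunits line the chamber of the core. Among the proteolytic subunits, Prosbeta1, which carries the caspase-like site, had the highest mean of all members, with 117, 121 and 149 FPKM in replicates 1, 2 and 3. Prosbeta5, which carries the chymotrypsin-like site, had 86.1, 68.8 and 108 FPKM. Prosbeta2, which carries the trypsin-like site, had 59.98, 98.4 and 81.8 FPKM. The values of Prosbeta1 lay above those of Prosbeta5 and Prosbeta2 in each library. Among the subunits without a proteolytic site, Prosbeta3 was the highest, with 134, 113 and 98.4 FPKM. Prosbeta4 was the lowest, with 49.1, 59.0 and 85.6 FPKM. Replicate 3 was the low library for Prosbeta3 and the high one for Prosbeta4. Prosbeta6 and Prosbeta7 were even, at means of 91.9 ± 10.8 and 87.0 ± 6.39 FPKM (SD, n = 3).

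The Rpt ATPases of the base had the narrowest range of means among the 5 groups drawn in the plot of main subunits, between 62.5 FPKM for Rpt5 and 85.5 FPKM for Rpt2, a 1.37-fold range. Rpt3 had 61.8, 67.3 and 63.3 FPKM in replicates 1, 2 and 3, and Rpt6 had 78.4, 68.5 and 79.8 FPKM. Rpt1 had 93.8, 88.9 and 72.6 FPKM, and Rpt4 had 68.3, 89.1 and 70.7 FPKM. Counting intervals overlapped between all libraries for each of the 6 ATPases.

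Of the other base subunits, Rpn1 and Rpn2 are the large scaffolds, and Rpn10 and Rpn13 bind ubiquitin chains. Rpn1 (FBgn0028695, BDGP6.54 3L 19915051 to 19918160) had 129, 107 and 60.9 FPKM in replicates 1, 2 and 3. Rpn2 (FBgn0028692, 3R 29153524 to 29157255) had 76.2, 60.4 and 43.4 FPKM. Replicate 3 was lowest for both scaffolds, and its counting intervals (52.2 to 70.6 FPKM for Rpn1, 36.5 to 51.2 FPKM for Rpn2) lay below those of replicate 1 (112 to 148 and 63.7 to 90.5 FPKM). Rpn13 had 59.8, 74.0 and 45.5 FPKM, and Rpn10 had 68.9, 50.3 and 64.7 FPKM. Rpn13 was also lowest in replicate 3, whereas Rpn10 was lowest in replicate 2.

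The lid subunits lay in a 1.47-fold range of means. Rpn11, the deubiquitinase of the lid, had 74.5, 67.1 and 86.7 FPKM in replicates 1, 2 and 3. Rpn8, its partner of the same domain family, had 45.7, 64.6 and 63.5 FPKM. Rpn12 varied least of all detected main subunits, with 76.4, 78.8 and 78.7 FPKM and a coefficient of variation of 1.71%. Its counting intervals were far wider, at 54.1 to 105, 59.6 to 102 and 61.8 to 98.7 FPKM. Its rank is therefore not read as a trait of the gene. Rpn5 (72.8 ± 6.50 FPKM), Rpn6 (69.5 ± 5.33), Rpn7 (62.6 ± 10.8) and Rpn9 (52.96 ± 12.4; SD, n = 3) are structural subunits of the lid. Rpn3 had 76.5, 45.0 and 65.8 FPKM, and its intervals in replicates 1 and 2 did not overlap.

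The core particle lay above the regulatory particle in median level. In replicates 1, 2 and 3, the median of core subunits was 86.1, 81.5 and 98.6 FPKM, against 74.3, 67.9 and 65.3 FPKM for regulatory subunits. The difference of medians was 0.21, 0.26 and 0.59 on the log2(FPKM + 1) scale, above 0 in 3 of 3 libraries, with a mean of 0.35 ± 0.21 (SD, n = 3). By mean FPKM, 11 of 14 core subunits exceeded the regulatory median of 66.8 FPKM, and 1 of 18 regulatory subunits, Rpn1, exceeded the core median of 89.7 FPKM. Core genes above Rpn1 were Prosbeta1, Prosalpha2, Prosbeta3 and Prosalpha7. With the mean over members in place of the median, the difference was -0.02, because Prosalpha1 pulls the core mean down, and without Prosalpha1 it was 0.39. No p is given for this score over the members.

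Core genes are also shorter than regulatory genes. Annotated exons covered 815 to 1215 bases in core genes, with a median of 971, and 995 to 3412 bases in regulatory genes, with a median of 1589. Of the 18 regulatory genes, 2 lay within the length range of the core, Rpn11 and Rpn12, at means of 76.1 and 77.9 FPKM. Across the 31 detected main subunits, mean log2(FPKM + 1) and log2 exon length had a Pearson r of -0.48 and a Spearman rho of -0.58. Within the 13 core genes r was -0.33, within the 18 regulatory genes -0.02, and across the 5551 detected protein-coding genes -0.26. The rho values of the same sets were -0.48, -0.23 and -0.20. These are correlations across genes of the same libraries, which are not independent replicates. With each exon length shortened by 200 bases, a setting chosen after seeing the data, the core exceeded the regulatory particle by 0.49. Particle and gene length cannot be told apart here.

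Within the particles, the rings and layers had similar medians. The alpha ring minus the beta ring was -0.06 ± 0.11 in the median of log2(FPKM + 1) (SD, n = 3), and 0.00 without Prosalpha1. By library it was 0.00042, -0.19 and 0.0081 in replicates 1, 2 and 3, so the mean came from replicate 2. The base minus the lid was 0.03 ± 0.06, above 0 in 2 of 3 libraries. Both differences were smaller than the spread between libraries.

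The main subunits as a set differed little between libraries. Their median deviation from each gene's own mean was -0.01, -0.08 and 0.09 on the log2(FPKM + 1) scale in replicates 1, 2 and 3. Over all detected protein-coding genes it was 0.01, -0.04 and 0.04. The 7 fat body markers had median deviations of -0.40, 0.02 and 0.48 in the same libraries, but did not move alike. Fbp1, the highest of them, had 1037, 1468 and 272 FPKM in replicates 1, 2 and 3, lowest in replicate 3, whereas Lsp1gamma had 557, 798 and 1331 FPKM, highest in replicate 3. As TPM, with the same total in each library, all detected protein-coding genes deviated by -0.32, 0.07 and 0.26, and the main subunits relative to them by -0.09, -0.01 and 0.10. That total includes rRNA genes, whose share of fragments was 55.0%, 41.4% and 24.6%. The part of rRNA in the TPM deviations was not tested. Counting intervals of at least 1 pair of libraries were apart for 5 of the 31 detected main subunits, against 26.8% of detected protein-coding genes. The 5 genes were Prosalpha2, Rpn1, Rpn2, Rpn3 and Rpn13.

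Between replicates 3 and 1, the median difference had opposite signs in core and regulatory subunits, which was not tested. Replicate 3 was above replicate 1 for 9 of 13 detected core genes and 8 of 18 regulatory genes, against 52.3% of detected protein-coding genes. In the core these were 3 of 6 detected alpha genes and 6 of 7 beta genes. In the regulatory particle they were 4 of 6 Rpt ATPases, 0 of 4 other base subunits and 4 of 8 lid subunits. No lean of a whole particle is read from these counts. The median of replicate 3 minus replicate 1 was 0.22 for core genes and -0.10 for regulatory genes on the log2(FPKM + 1) scale, and 0.05 for detected protein-coding genes. The lowest values of this difference among the 31 genes were those of Rpn1 (-1.07) and Rpn2 (-0.80), whose exons cover 3041 and 3412 bases, the longest among the members. The highest were those of Prosbeta4 (0.79) and Prosalpha2 (0.75), with 815 and 920 bases. Across the 31 genes this difference and log2 exon length had r = -0.63 and rho = -0.45, and across the 5551 detected protein-coding genes r = -0.29 and rho = -0.31. In the same libraries the rRNA share was 24.6% in replicate 3 and 55.0% in replicate 1, and the part of these values in the difference was not tested.

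**Figure D2:**
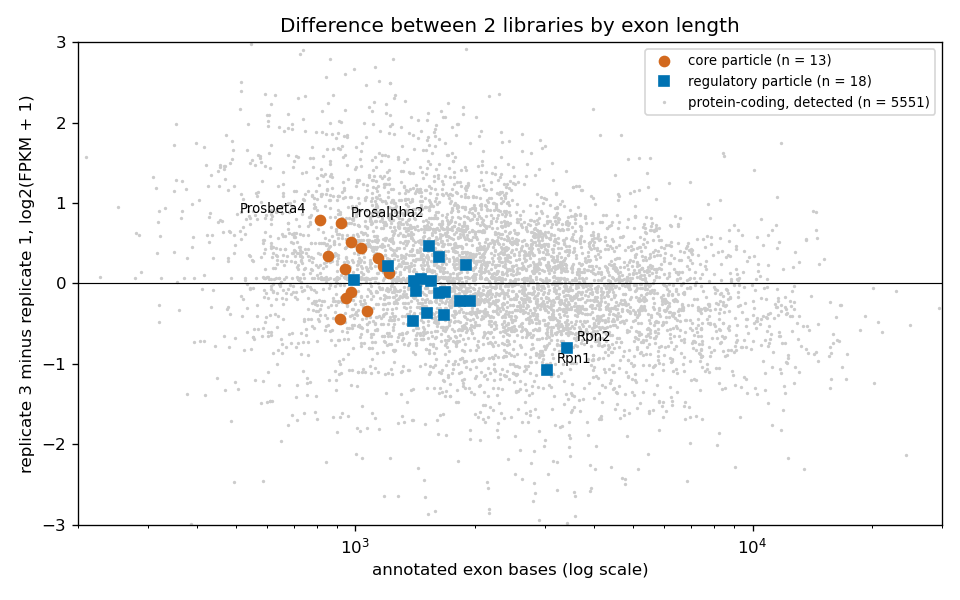
Difference between replicate 3 and replicate 1 in log2(FPKM + 1) against annotated exon bases (log axis), for core subunits (orange), regulatory subunits (blue) and all detected protein-coding genes (grey, with 28 genes outside the plotted range). The long genes Rpn1 and Rpn2 lie lowest among the subunits, at -1.07 and -0.80.

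The paralogues were at or near 0. Of the 16, 11 were listed at 0 in every library, against 32.3% of all protein-coding genes. Without Prosalpha1R, whose level is uncertain, 10 of 15 were listed at 0. All 16 together had 9 recovered fragments, whereas the 32 main subunits had 7337. For the alpha ring, Prosalpha3T, Prosalpha4T1 and Prosalpha6T were listed at 0, and Prosalpha4T2 had 1 fragment, in replicate 2 (1.10 FPKM). For the beta ring, Prosbeta2R1, Prosbeta4R1, Prosbeta4R2, Prosbeta5R1 and Prosbeta5R2 were listed at 0, and Prosbeta2R2 had 2 fragments, in replicate 2 (2.08 FPKM). For the regulatory particle, Rpt4R and Rpn12R were listed at 0, Rpt3R had 1 fragment in replicate 3 (0.728 FPKM) and Rpt6R 1 fragment in replicate 1 (1.38 FPKM). Rpn13R, at 3.68, 2.53 and 0 FPKM in replicates 1, 2 and 3, was the highest paralogue and rested on 4 fragments.

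Set against its main subunit, each paralogue other than Prosalpha1R was lower in 3 of 3 libraries. Differences in log2(FPKM + 1), main subunit minus paralogue, were between 4.55 for Rpn13 and Rpn13R and 6.62 for Prosalpha3 and Prosalpha3T in these 15 pairs. With 3 libraries the two-sided exact sign-flip permutation test cannot go below p = 0.25, which each of the 15 pairs gave, or 0.267 after Benjamini-Hochberg adjustment over all 16 pairs. Prosalpha1 minus Prosalpha1R was 0.81 ± 1.40 (SD, n = 3), higher in 1 of 3 libraries, with an exact p of 1.0.

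In fragments per exon base summed over the 3 libraries, main subunits exceeded the 10 paralogues at 0 by wide margins, with 3 fragments over the 3 libraries taken as the limit for a count of 0. With that limit, and the count of the main subunit taken as exact, the ratios ran from 41.1-fold for Prosbeta4 over Prosbeta4R1 to 99.7-fold for Prosbeta5 over Prosbeta5R2. They leave out counting error in the main subunit, so they are not strict lower bounds. They are not comparable with the exact intervals of the other pairs, which cover both counts. Rpn13 exceeded Rpn13R 34.5-fold (95% exact interval 13.3 to 128), the smallest ratio among the 5 of these pairs with a paralogue above 0. Prosbeta2 exceeded Prosbeta2R2 118-fold (32.2 to 982). The ratios of Prosalpha4 to Prosalpha4T2 (212-fold, 37.7 to 8423), of Rpt3 to Rpt3R (203-fold, 36.0 to 8050) and of Rpt6 to Rpt6R (238-fold, 42.3 to 9431) rest on 1 paralogue fragment each. A single library sets a looser limit than the 3 together. For Prosbeta4R1, the limit that a count of 0 allows in 1 library was 7.23, 4.97 and 3.82 FPKM in replicates 1, 2 and 3.

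**Figure D3:**
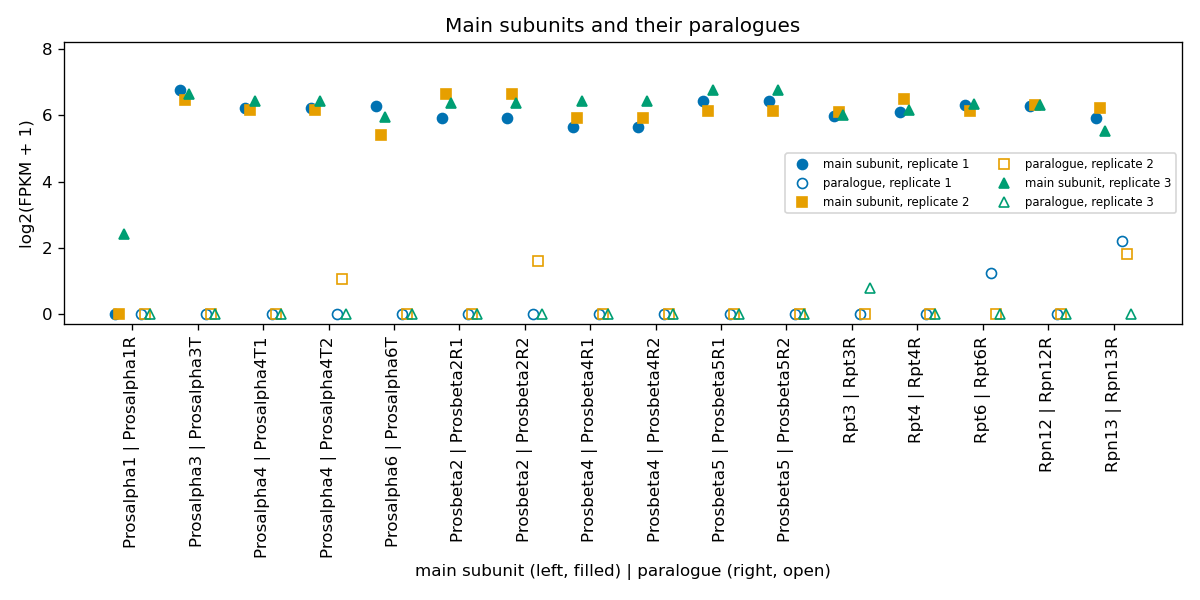
log2(FPKM + 1) of each main subunit (filled, left) and its paralogue (open, right) for the 16 pairs, with 1 point per library. The 15 pairs other than Prosalpha1 and Prosalpha1R are separated by 4.55 to 6.62 on average.

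Testis marker genes were also at or near 0. None of the 10 listed testis genes was detected, and their summed level was 1.54, 2.84 and 1.28 FPKM in replicates 1, 2 and 3. mia had 1.32 ± 0.435 FPKM, bam 0.242 ± 0.419, topi 0.173 ± 0.299 and aly 0.156 ± 0.269 (SD, n = 3). The others, can, sa, nht, comr, dj and Taf12L, were listed at 0 in every library.

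Gene structure and place were read from the annotation. Of the 16 paralogues, 6 had a single exon block, that is no intron in the merged annotation. They were Prosalpha3T, Prosalpha4T1, Prosalpha6T, Prosbeta5R2, Rpn12R and Rpn13R. Of the 32 main subunits, 4 had a single block, Prosbeta3, Rpt1, Rpn7 and Rpn12, and these counts were not tested. Main subunits were spread over the chromosome arms, with 10 on 2R, 9 on 3R, 5 on 3L, 4 on 2L and 4 on X. Paralogues lay on the same arms, with 3 on 2R, 5 on 3R, 2 on 3L, 4 on 2L and 2 on X. Members within 50 kb of each other formed 5 pairs. Prosalpha1 with Prosalpha1R and Prosbeta4R1 with Prosbeta4R2 (1467 bases apart on 2L) were tandem pairs on the same strand, with no protein-coding gene lying wholly between them. CG18853 (2R 7829062 to 7830429) lies mostly between Prosalpha1 and Prosalpha1R, and shares 17 exon bases with Prosalpha1R. The pairs of different subunits were Rpn9 and Rpt5 on 3R (19.4 kb apart), Rpn12 and Prosbeta6 on 3L (25.4 kb) and Prosbeta2 and Rpn12R on 3L (40.3 kb), each on opposite strands. The last pair joins a subunit at 80.1 FPKM and a paralogue listed at 0.

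Counting was unstranded by the name of the deposited table. Exon bases were shared with an antisense gene in 13 of the 32 main subunits, up to 15.7% in Rpn9, 13.0% in Rpt6 and 7.93% in Prosbeta2. These 3 levels are therefore less certain than those of subunits with no overlap.

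Among the regulators, assembly factors and shuttles of the proteasome, 13 of 14 genes were detected, at lower levels than most subunits. The median of the 14 means was 30.5 FPKM, against 76.1 FPKM for main subunits and 11.6 FPKM for detected protein-coding genes. The exception was Sem1, which encodes a small lid subunit outside the naming rule. It had 103, 90.1 and 183 FPKM in replicates 1, 2 and 3, in the upper range of the main subunits and highest in replicate 3. Pomp, the chaperone that assembles the core, had 34.8, 25.2 and 31.96 FPKM, with 40.0% of its exon bases shared with other genes. PI31, a proteasome-binding regulator, had 29.9, 31.3 and 33.9 FPKM. REG, the gene of an alternative cap, had 14.2, 7.51 and 16.2 FPKM. The means of Pomp, PI31 and REG lay below those of every main subunit other than Prosalpha1.

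The deubiquitinases that dock on the base, Usp14 and Uch-L5, had 42.3 ± 3.98 and 30.3 ± 6.76 FPKM (SD, n = 3). Shuttle proteins carry ubiquitinated substrates to the base. Of their genes, Rad23 had 41.0 ± 8.52 FPKM, Ubqn 31.6 ± 4.43 and rngo 26.5 ± 12.0. In mammals, relatives of the transcription factor encoded by cnc drive proteasome genes with small Maf partners, and KEAP1 is an inhibitor of such a relative. In the glands, cnc had 20.3, 19.0 and 16.5 FPKM in replicates 1, 2 and 3, and maf-S had 58.8, 46.8 and 57.3 FPKM. Keap1 had 16.3, 15.95 and 3.68 FPKM, with its low value in replicate 3. Pngl, related to the glycanase that processes a cnc relative in mammals, had 9.37 ± 2.78 FPKM. ntc, an F-box gene known for proteasome regulation in testis, had 1.95 ± 1.10 FPKM from 6 fragments and was not detected in every library.

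**Figure D4:**
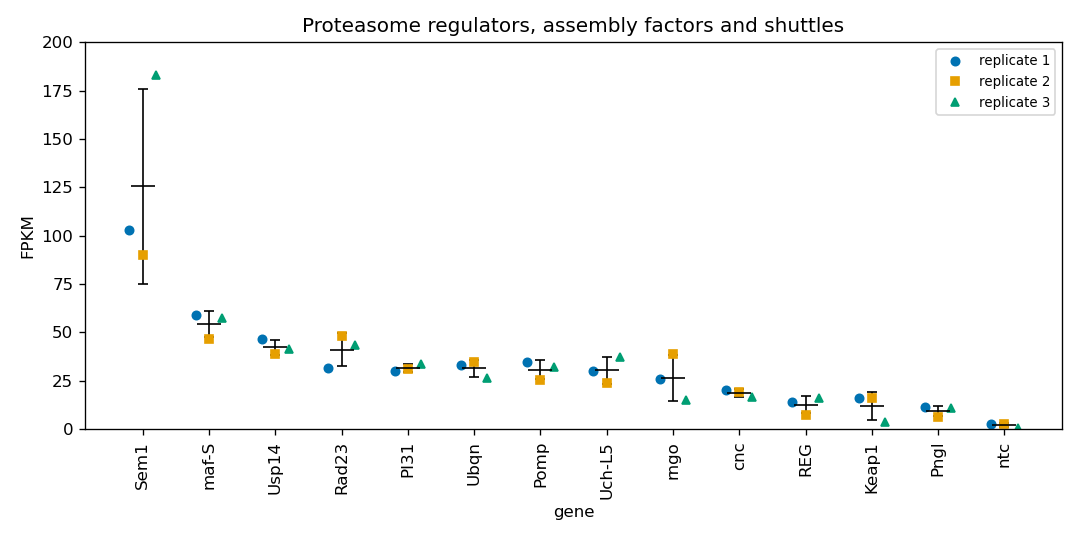
FPKM of the 14 regulators, assembly factors and shuttles, ordered by mean. Points are the 3 libraries, and dashes and bars are the mean and SD (lower bars stop at 0). Sem1 lies highest, at 90.1 to 183 FPKM, and ntc lowest.

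All 17 matched genes of the ubiquitin and segregase list were detected, with a median of 58.1 FPKM. Ubiquitin itself is encoded by fusion genes. RpS27A (2597 ± 330 FPKM) and RpL40 (2277 ± 374), which join it to ribosomal proteins, were listed far above the polyubiquitin genes Ubi-p63E (160 ± 54.1) and Ubi-p5E (73.9 ± 22.7; SD, n = 3). Genes that all encode ubiquitin may share reads, and how the authors treated such reads is not known here. The gap between these genes is therefore uncertain. Uba1, the ubiquitin-activating enzyme, had 56.9 ± 6.93 FPKM, within the range of the main subunits. Among conjugating enzymes, eff had 97.1 ± 11.9 FPKM, Ubc10 58.1 ± 9.18 and Ubc2 10.2 ± 1.92. Among ligase components, SkpA had 133 ± 20.8 FPKM, Roc1a 85.5 ± 10.2, Cul1 21.7 ± 6.47 and Ube3a 14.2 ± 2.40. Cul3, at 33.3, 99.7 and 13.9 FPKM, and slmb, at 67.0, 113 and 21.5 FPKM, were highest in replicate 2 and lowest in replicate 3. The segregase cofactors p47 and Npl4 had 28.6 ± 4.51 and 11.7 ± 4.73 FPKM. Ufd1-like and TER94 were not analysed here.

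The spread among the detected main subunits was set beside that of other large complexes. The SD over genes of mean log2(FPKM + 1) was 0.34 for the 31 main subunits, and 0.34 for core and 0.23 for regulatory subunits alone. It was 1.39 for 15 detected vacuolar ATPase genes, 0.93 for 80 detected cytosolic ribosomal protein genes and 1.95 for the 5551 detected protein-coding genes. The lists of the other complexes include tissue-specific isoforms, some at low levels, so part of their SD is set by how the lists were made, and the difference was not tested. Medians of detected genes were 76.1 FPKM for the proteasome, 211 FPKM for the vacuolar ATPase and 1695 FPKM for ribosomal proteins. The quartiles of proteasome genes were 62.5 and 89.7 FPKM, those of vacuolar ATPase genes 170 and 280 FPKM, and those of ribosomal protein genes 1372 and 2176 FPKM. Relative to their medians, the quartiles lay closest together for the proteasome, but the 3 complexes differed less by quartiles than by SD. This was not tested either, and evenness is not shown to be particular to the proteasome.

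**Figure D5:**
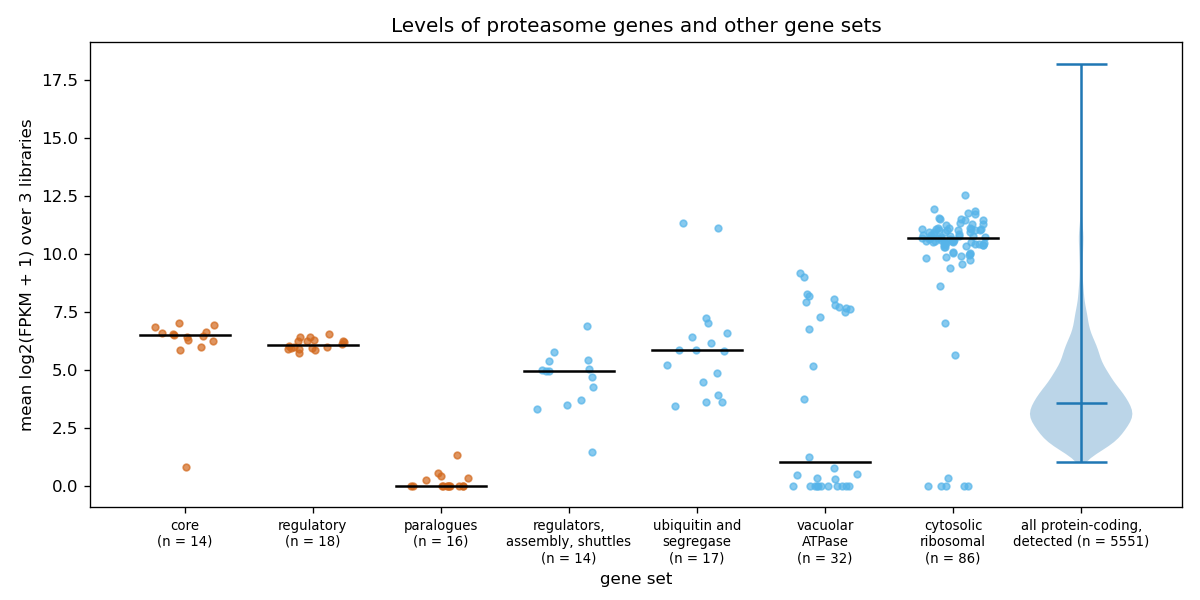
Mean log2(FPKM + 1) over the 3 libraries for each gene (points) with set medians (black lines), and the distribution of all detected protein-coding genes as a violin with its median. Set medians are over all genes of a set, detected or not. The vacuolar ATPase line covers 32 genes, of which 15 were detected, and so lies below the median of 211 FPKM of its detected genes. Core and regulatory subunits form narrow bands apart from Prosalpha1, and the paralogues lie at or near 0.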

How the data were processed

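RNA of 3 salivary gland libraries was measured by poly(A) RNA sequencing. The deposited values are FPKM per gene. Per the submitters' processing notes, the tools included HISAT2 and DESeq. Genome build, annotation and counting program: not given in the sources used here. Of 17278 genes, 17142 matched Ensembl BDGP6.54, release 115, which gave symbols, biotypes, exon lengths and coordinates. FPKM times exon length was a whole multiple of 1 step per library, within 0.01, for 98.7% to 98.8% of values above 0, which gave fragments per gene. The steps imply that the authors divided by 499875, 727436 and 945562 fragments, fewer than were recovered in each library. Levels were compared as log2(FPKM + 1). Counting intervals are exact Poisson intervals of 95%, and ratios have exact binomial intervals. A count of 0 was taken to allow 3 fragments. Pairs were compared by an exact sign-flip test over libraries.

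Members and lists were chosen with earlier results of these data known. Every member is named, with the genes of the 2 lists of proteasome partners, of which 1 is not reported here, and of other lists the 4 highest and 2 lowest. Lists were proteasome regulators, ubiquitin genes, salivary gland, fat body, testis, hemocyte, muscle, vacuolar ATPase and ribosomal protein genes. Alternatives were detection limits, pseudocounts, TPM, median ratios, a minimum of 20 fragments, means in place of medians and leaving out libraries. Recovery was tested on simulated data. No sequence was used. Software was scipy 1.17.1, matplotlib 3.10.9, pandas 2.3.3 and numpy 2.4.6 under Python 3.11.15.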

Additional observations from a re-analysis of the deposited data

How the results depend on the processing

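The count of detected members was 31 to 32 and the count of pairs with the main subunit higher in every library was 15 under all alternatives run. The count of 32 came from leaving out replicate 3. The added member was the paralogue Rpn13R, at 3.68 and 2.53 FPKM in replicates 1 and 2, and not Prosalpha1. Rpn13R rested on 2 fragments in each of these libraries. For a gene with 1 kb of exon, the limits of 0.5 and 1 FPKM both ask for 1 fragment per library. The lower limit could therefore not change the call of such a gene. Core minus regulatory particle was above 0 under 11 of 12 alternatives, up to 0.49, and was -0.022 with the mean over members. It was 0.23 to 0.42 with 1 library left out. Alpha minus beta ring was 0.00 with members of at least 20 fragments (0.00061) and likewise without Prosalpha1, -0.84 with the mean over members, and -0.10 to 0.0042 with 1 library left out. Base minus lid was 0.12 with the mean over members, with or without Prosalpha1, and 0.0080 to 0.067 with 1 library left out. The range of the median deviation of main subunits over libraries, 0.16 as deposited, was 0.76 as TPM, 0.064 with the mean over members without Prosalpha1, and 0.038 to 0.16 with 1 library left out. The TPM total includes rRNA genes. The SD among all 32 main subunits within a library, 1.05 as deposited, was 1.44 and 1.83 with pseudocounts of 0.1 and 0.01, and 0.40 without Prosalpha1 or with members of at least 20 fragments, since Prosalpha1 carries most of it. It was 0.99 to 1.17 with 1 library left out. No paired analysis was possible because there is 1 group. For paralogues listed at 0, depth sets the limits given beside them.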

Other observations

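Other lists describe the make-up of the libraries. Of 5 hemocyte markers, 2 were detected, crq at 16.8 ± 8.68 and srp at 1.77 ± 0.653 FPKM, while Pxn, Hml and NimC1 lay between 0.663 and 1.28 FPKM (SD, n = 3). Of 5 muscle markers, 2 were detected, TpnC73F at 25.7 ± 12.4 and Act57B at 7.60 ± 2.61 FPKM, and wupA, Mhc and up lay between 0.542 and 1.62 FPKM. The highest gland markers were Sgs7, Sgs3, Sgs5 and Sgs8, and the lowest were CrebA at 127 ± 70.9 and fkh at 64.1 ± 16.2 FPKM. Of the fat body markers, Fbp1, Lsp1gamma, Fbp2 and Lsp1beta were highest, and Lsp2, with 84.6% of its exon bases shared with other genes, and FASN1 were lowest. Vha16-1 (579 ± 23.9 FPKM), Vha13 (513 ± 70.7), VhaPPA1-1 (313 ± 42.9) and Vha55 (293 ± 51.0) led the vacuolar ATPase list, of which 11 genes were listed at 0. RpL41, RpL27A, RpL23 and RpS18 led the ribosomal protein list, of which 5 were listed at 0, among them RpS10a and RpS28a.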
